A study of Mus musculus with 3 samples.

Results

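The B cell receptor is a membrane immunoglobulin held together with the signalling pair encoded by Cd79a and Cd79b, and 8 genes of this receptor and of the mature B cell surface were followed through mouse bone marrow. The members were the rows of the count tables whose symbol is Cd79a, Cd79b, Ighm, Ighd, Ms4a1, Cd22, Fcmr or Fcer2a, which is 8 of 32285 genes, and all 8 were found. Single cells were profiled in 3 libraries by droplet capture with the Single Cell 3' v2 chemistry of 10x Genomics, which counts unique molecular identifiers (UMIs) from the 3' end of each transcript. LSK cells are lineage-negative, Sca-1+ Kit+ marrow cells, a gate that holds stem cells and multipotent progenitors, and LK cells are lineage-negative Kit+ progenitors. TBM is total bone marrow. Lineage-positive cells were depleted with antibodies against CD45R (the B cell antigen B220), CD5, CD8a, CD11b, Ly-6C, Ly-6G and Ter119, and the marrow was taken from several limb and axial bones. The labels give no genotype, treatment, strain, age, sex or number of mice, and leave unsaid whether the LK gate also excluded Sca-1+ cells. With 1 library per gate, differences have no replicate check, no test was run, and every 95% interval covers counting error only.

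In B cell development the heavy chain is made first and pairs with a surrogate light chain (Vpreb1 and Igll1) to form the pre-B cell receptor. A rearranged light chain then replaces the surrogate, giving membrane IgM, and IgD is added by alternative splicing of the same heavy chain transcript as the cell matures. Ighm and Ighd encode the constant regions of IgM and IgD. Ms4a1 encodes CD20, a surface protein of B cells, and Cd22 encodes a sialic acid-binding inhibitory co-receptor. Fcmr encodes the receptor for the Fc part of IgM, and Fcer2a encodes CD23, the low-affinity IgE receptor, a mark of follicular B cells.

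After filtering, LSK held 1067 cells with a median of 9688 UMIs, LK held 3461 cells with a median of 13683, and TBM held 4217 cells with a median of 3347. Totals were 11836820 UMIs in LSK, 49936180 in LK and 21958139 in TBM, so 3 UMIs, the floor used for genes with too few counts, equal 0.253, 0.0601 and 0.137 CPM (counts scaled to the total of the library or cell group) in that order. Cell barcodes shared between libraries numbered 6 for LSK and LK, 6 for LSK and TBM, and 25 for LK and TBM. Clustering without the members, immunoglobulin genes and other left-out sets gave 3 clusters whose highest-scoring marker list was a B lineage list. One was pro-B and pre-B cell-like (154 TBM and 3 LSK cells, led by Igll1 and Vpreb1). The other two stayed unnamed by the naming rule and are called here by their leading genes: the Vpreb3/Ebf1 cluster (541 TBM cells, with 9 of 10 B cell markers in at least 10% of cells) and the Cd74/H2-Eb1 cluster (647 TBM cells, with 10 of 10).

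The members lie on 6 chromosomes in the GENCODE M21 annotation of GRCm38, the assembly that mm10 also names. Cd79a (ENSMUSG00000003379) is at chr7:24897381-24902197 on the plus strand, and Cd22 (ENSMUSG00000030577) at chr7:30865402-30880342 on the minus strand. Cd79b (ENSMUSG00000040592) is at chr11:106311341-106314762 (minus) and Ms4a1 (ENSMUSG00000024673) at chr19:11249675-11266241 (minus). Fcmr (ENSMUSG00000042474) is at chr1:130865669-130880791 (plus) and Fcer2a (ENSMUSG00000005540) at chr8:3681737-3694175 (minus). Ighm (ENSMUSG00000076617, chr12:113418558-113422730) and Ighd (ENSMUSG00000104213, chr12:113406604-113416324) are neighbouring constant region genes on the minus strand, 2234 bases apart. They share the upstream part of 1 primary transcript, and a UMI is assigned to one of them by its 3' end. No member overlaps another annotated gene on its own strand. On the opposite strand, 4930526L06Rik overlaps Ms4a1 and Gm29439 overlaps Cd22, and whether the counting used strand is not given in the sources used here.

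Upstream windows are shown for 3 members, Cd79a, Fcmr and Fcer2a, the only ones with a usable window. For Cd79b, Ms4a1, Ighm and Ighd no window was available, and that of Cd22 lay in an annotated exon or gene. The windows are RefSeq sequence of GRCm38.p6, chr7:24897247-24897380 (plus strand) for Cd79a, chr1:130865527-130865668 (plus) for Fcmr and chr8:3694176-3694424 (minus) for Fcer2a, and each ends at the base before the annotated gene. Capitals mark matches to the motifs searched.
Cd79a: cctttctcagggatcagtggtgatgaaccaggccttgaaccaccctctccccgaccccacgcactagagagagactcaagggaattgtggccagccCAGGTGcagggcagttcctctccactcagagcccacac
Fcmr: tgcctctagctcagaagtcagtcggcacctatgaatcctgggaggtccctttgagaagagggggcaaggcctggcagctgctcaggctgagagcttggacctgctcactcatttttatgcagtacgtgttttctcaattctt
Fcer2a: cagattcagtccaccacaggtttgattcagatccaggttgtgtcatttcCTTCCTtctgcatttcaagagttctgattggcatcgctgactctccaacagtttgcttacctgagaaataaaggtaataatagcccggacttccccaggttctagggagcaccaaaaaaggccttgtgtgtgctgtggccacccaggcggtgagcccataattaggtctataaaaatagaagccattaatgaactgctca
Both strands were searched for 4 motifs: CAGGTG (an E-box), ATGCAAAT (the immunoglobulin octamer), the palindrome bound by EBF1 and AGGAAG (a core of ETS factor sites). The Cd79a window held CAGGTG at bases 97 to 102, which 9.72% of 27025 promoter windows of that length also hold. In the Fcer2a window AGGAAG lay on the opposite strand at bases 50 to 55, a match found in 29.1% of windows of that length. None of the 4 motifs was found in the Fcmr window, which says only that these letters are not in those 142 bases. The matches are descriptions of sequence, not binding sites.

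Across the gates, Ms4a1, Cd22, Ighd, Fcmr and Fcer2a had at most 5 UMIs in each progenitor library, whereas Cd79b and Ighm were well counted in both, and Cd79a was counted in LSK and had 9 UMIs in LK. Cd79a had 7.01 CPM in LSK (95% interval 5.59 to 8.69), 0.180 CPM in LK (0.0824 to 0.342) and 587 CPM in TBM (577 to 597). Cd79b had 36.2 CPM in LSK, 39.0 CPM in LK and 431 CPM in TBM. Ighm had 64.8 CPM in LSK, 109 CPM in LK and 1057 CPM in TBM. All 3 genes were highest in TBM, and Cd79a differed most between the gates. Ms4a1 had 1 UMI in LSK and 1 UMI in LK, against 3582 UMIs (163 CPM) in TBM. Ighd had 2 UMIs in LSK, 5 UMIs in LK and 1459 UMIs in TBM, and Fcer2a had 4, 2 and 589 UMIs in the same order of gates. Cd22 and Fcmr had no UMI in LSK or LK. Against the floor of 3 UMIs per library, Cd22 was at least 85.2-fold lower in LSK and at least 359-fold lower in LK than in TBM. For Fcmr the bounds were at least 297-fold lower in LSK and at least 1254-fold lower in LK.

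All 8 members were at least 2-fold lower in LK than in TBM, as were 16.8% of 13416 genes, while 27.3% were higher. All 8 were likewise at least 2-fold lower in LSK than in TBM, as were 13.1% of 12916 genes, while 36.9% were higher. The B220 antibody was part of the depletion for LSK and LK, so B220+ cells should be missing there by design of the gates. These counts therefore describe the gates. Between the progenitor gates 3 members had the 20 UMIs needed for a ratio. Of these, Cd79a alone exceeded 2-fold, with LSK above LK, as did 19.9% of 13016 genes. None was that far below, where 3.73% of genes were. The log2 ratio of LSK over LK was 5.28 for Cd79a (4.29 to 6.46), -0.11 for Cd79b (-0.26 to 0.04) and -0.75 for Ighm (-0.86 to -0.64), where the median gene stood at 0.34. Scaling by size factors instead of totals gave -0.47 for Cd79b and -1.11 for Ighm. In a summed library fewer cells of a type and less RNA per cell cannot be told apart, so the cells behind these values are described next.

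The Cd79a of the LSK library lay in 4 cells. They held 79 of its 83 UMIs, namely 32, 21, 19 and 7. Cells 1, 3 and 4 fell in the pro-B and pre-B cell-like cluster and carried 31, 34 and 6 UMIs of Vpreb1, 28, 45 and 41 UMIs of Dntt (the terminal transferase of heavy chain joining), 17, 24 and 20 UMIs of Ebf1 (a transcription factor that sets B lineage identity), and 18, 56 and 15 UMIs of Ighm. None of these 3 cells had a UMI of Ms4a1, Cd22, Ighd, Fcmr or Fcer2a. They thus carried the early receptor genes without the late ones. The remaining cell had 21 Cd79a, 14 Cd79b and 2064 Jchain UMIs (Jchain encodes the joining chain of secreted antibody) and no Ighm UMI. Without the 4 cells Cd79a was at 0.341 CPM in LSK, and the log2 ratio of LSK over LK was 0.92. In LK no cell had more than 1 Cd79a UMI, and 9 of 3461 cells had that 1.

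Cells with at least 3 UMIs of Cd79a and Cd79b together numbered 15 in LSK (1.41%, 0.789% to 2.31%), 120 in LK (3.47%, 2.88% to 4.13%) and 1395 in TBM (33.1%, 31.7% to 34.5%). In LSK 11 of the 15, and in LK 119 of the 120, had no Cd79a UMI at all, so the cut picked cells by Cd79b. These cells were also deep, with medians of 19026 UMIs in LSK and 21833 UMIs in LK. The count of Cd79b UMIs per Cd79a UMI was 5.16 in LSK (4.07 to 6.60), 216 in LK (114 to 474) and 0.734 in TBM (0.714 to 0.754). Capture differs between genes, so these ratios are compared between cell groups and not with 1. Without the 4 cells of 3 or more Cd79a UMIs, LSK had 387 Cd79b and 4 Cd79a UMIs, a ratio of 96.8 (37.5 to 357) that overlaps the LK interval. Per Cd79a UMI, both progenitor gates thus held more Cd79b than TBM. The part of free RNA in these values was not tested. Of 10 B cell markers, 7 had UMIs in LK (749 UMIs, in 17.7% of cells). In LSK without the 4 cells, 7 had UMIs as well (294 UMIs, in 23.4% of cells). Pax5 and Blk had none in either.

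**Figure D1:**
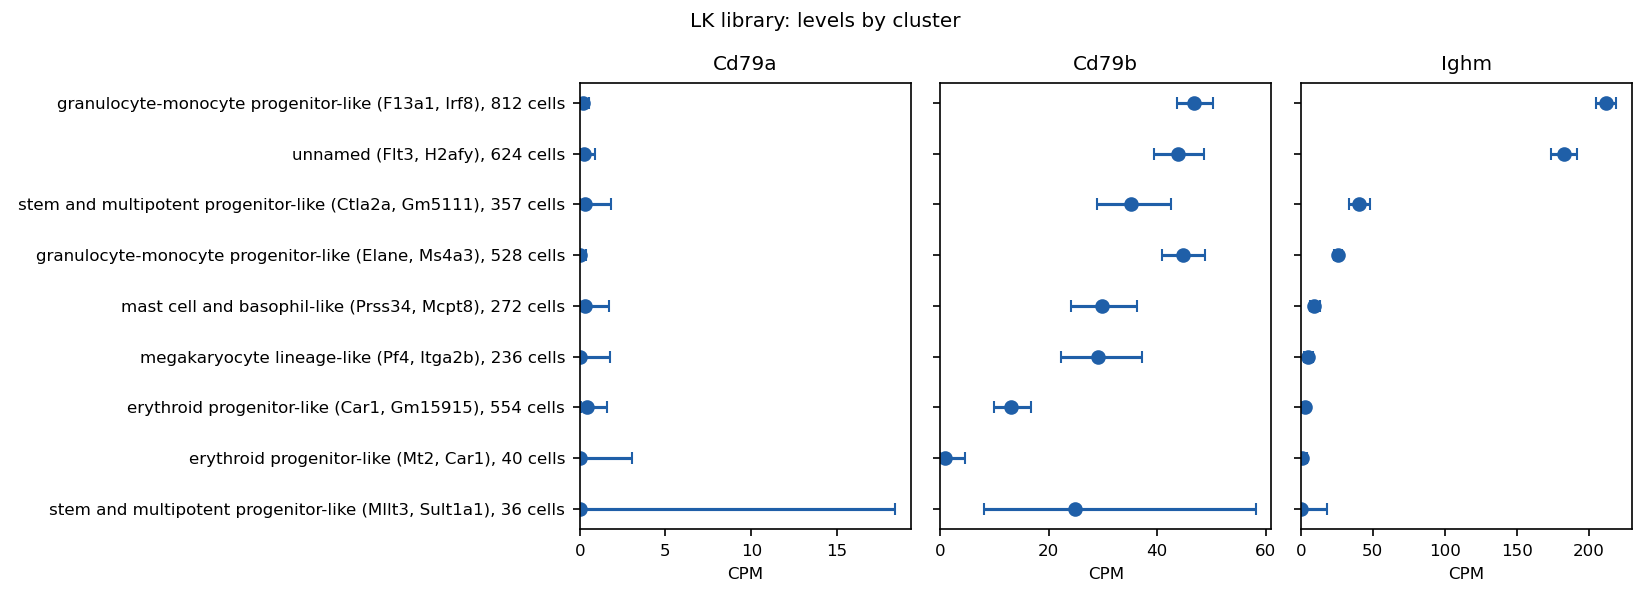
Levels of Cd79a, Cd79b and Ighm (x axes, CPM, each with its own scale) in 9 clusters of the LK library (y axis, with 2 leading genes and the number of cells), with exact 95% Poisson intervals. Cd79b lies between 24.9 and 46.8 CPM in 7 clusters and lower in both erythroid ones, Ighm is highest in 2 clusters at 212 and 183 CPM, and Cd79a stays below 1 CPM in every cluster.

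Among LK cells, Cd79b was spread over most clusters and Ighm was not. Cd79b reached 46.8 CPM (43.6 to 50.3) in the granulocyte-monocyte progenitor-like cluster led by F13a1 and Irf8, 44.7 CPM in the one led by Elane and Ms4a3, and 43.9 CPM in an unnamed cluster led by Flt3. It was at 35.2 CPM in the stem and multipotent progenitor-like cluster led by Ctla2a, at 29.8 CPM in mast cell and basophil-like cells and at 29.0 CPM in megakaryocyte lineage-like cells. The lowest values were in erythroid progenitor-like cells, with 12.96 CPM (9.87 to 16.7) in the larger cluster and 1 UMI in the 40 deep cells of the other (0.824 CPM, median 30874.5 UMIs per cell). Cd79b was thus lowest in the erythroid clusters, and counting error does not separate the 3 highest. The LK share of cells with a Cd79b UMI was 39.0% without thinning and 3.44% after each cell was thinned to 1000 UMIs. The same shares were 29.9% and 3.94% in LSK, and 41.4% and 31.1% in TBM.

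Ighm split the same LK clusters widely. The F13a1/Irf8 cluster had 212 CPM (205 to 219) and the Flt3 cluster 183 CPM (174 to 192), whereas the Elane/Ms4a3 cluster, at a like depth to the first (medians of 20167.5 and 20044.5 UMIs), had 25.8 CPM (22.8 to 29.0). Stem and multipotent progenitor-like cells led by Ctla2a had 40.5 CPM, mast cell and basophil-like cells 9.20 CPM, megakaryocyte lineage-like cells 4.76 CPM and the larger erythroid progenitor-like cluster 2.86 CPM. After thinning, a UMI of Ighm was in 15.4% of F13a1/Irf8 cells and 13.9% of Flt3 cells, against 0.181% of the larger erythroid progenitor-like cluster, a cell type that should lack it. The F13a1/Irf8 and Flt3 clusters thus stood apart from the Elane/Ms4a3 and erythroid ones. In the F13a1/Irf8 cluster 4 of 10 B cell markers had UMIs, and the list summed to 9.55 CPM. Pax5, Bank1, Blk, Fcrla and Ly6d had none there. In the larger erythroid progenitor-like cluster, where Ighm was lowest but for 2 small clusters, 3 of the 10 had UMIs and the list summed to 27.7 CPM. Pax5, Blk, Ly6d, Cxcr5, Spib and Fcrl1 had none in that cluster.

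Splitting the progenitors by Procr (a stem cell surface receptor), Flt3 (a receptor of multipotent and lymphoid-directed progenitors) and Dntt ordered the Ighm levels, while Cd79b differed by far less. This split was chosen after these genes' levels had been seen, and LSK cells of 3 or more Cd79a UMIs were left out of it. In LSK, Ighm was at 4.86 CPM (2.33 to 8.93) in 227 Procr+ cells without Flt3 or Dntt, 39.8 CPM (34.2 to 46.0) in 387 Flt3+ cells without Dntt and 256 CPM (233 to 280) in 149 Dntt+ cells. LK gave 47.3 CPM in 102 Procr+ cells, 164 CPM in 723 Flt3+ cells and 302 CPM in 138 Dntt+ cells. These LK classes held 56, 1813 and 542 of the 5454 Ighm UMIs of LK. Most of the 3461 LK cells and most of their Ighm UMIs thus lay outside the split. The LSK classes held 10, 184 and 464 of 678 Ighm UMIs. In both gates the 3 intervals did not overlap, and the order was the same. Cd79b was at 29.6, 33.1 and 39.7 CPM in the LSK classes and at 28.7 (19.9 to 40.1), 45.9 (42.0 to 50.1) and 39.5 CPM (30.9 to 49.8) in the LK classes, where the Procr+ and Flt3+ intervals do not overlap. Cd79a had 0, 1 and 1 UMI in the LSK classes and 0, 4 and 0 UMIs in the LK classes. The thinned share of Dntt+ cells with an Ighm UMI was 18.1% in LSK and 21.7% in LK, against 0.881% of LSK Procr+ cells and 2.94% of LK Procr+ cells. Median depths were 10861 and 11806 UMIs in the Dntt+ cells of LSK and LK, and 7690 and 9368.5 UMIs in the Procr+ cells. Of 10 B cell markers, 3 had UMIs in the Dntt+ cells of LSK (41 UMIs in 34 cells, 22.6 CPM) and 5 in those of LK (74 UMIs in 18 cells, 41.2 CPM). Pax5 and Blk had none in either. The list made up 0.281% of UMIs in the highest of these LK cells and 0.0225% in the highest LSK cell. Of 10 pro-B and pre-B cell markers, 7 had UMIs in LSK (37 UMIs) and 4 in LK (30 UMIs).

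**Figure D2:**
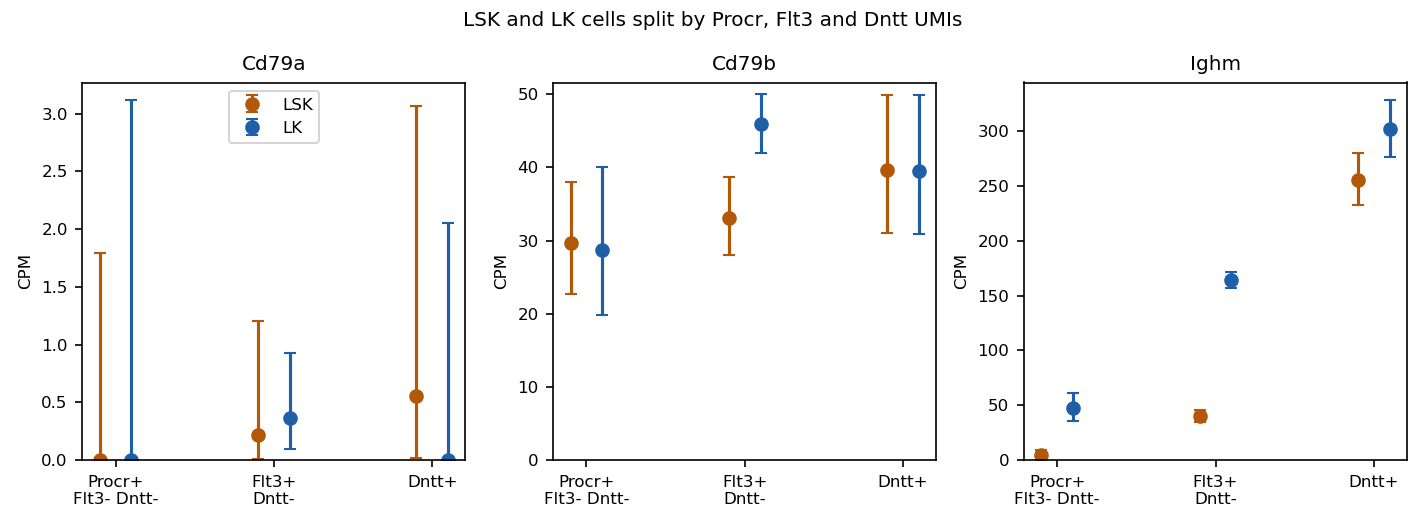
Levels of Cd79a, Cd79b and Ighm (y axes, CPM, each with its own scale) in LSK and LK cells split by UMIs of Procr, Flt3 and Dntt (x axis), with exact 95% Poisson intervals. Ighm steps up to 256 CPM in LSK and 302 CPM in LK in Dntt+ cells, Cd79b stays between 28.7 and 45.9 CPM, and Cd79a is below 1 CPM throughout.

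In total marrow the receptor genes sat in the B lineage, with Ighm as the partial exception. The 1395 TBM cells with at least 3 Cd79a and Cd79b UMIs were the cells studied for the order of onset, and 1339 of them (96.0%) fell in the B lineage clusters, which held 1342 TBM cells in all. These cells carried 98.6% of the Ms4a1 UMIs of TBM, 98.3% of Fcer2a, 97.6% of Ighd, 97.5% of Fcmr, 95.1% of Cd22 and 87.0% of Ighm. At the cut, 27 cells had exactly 3 UMIs and 25.9% of them lay in the B lineage clusters, while 93 cells had 2 UMIs and 1.08% of those did. Cells of exactly 4 UMIs numbered 16, with 68.8% in the clusters, and cells of exactly 5 numbered 30, with 90.0%. Cells at the cut were thus mixed and few.

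Outside the B lineage clusters, the ratio of Ighm to Cd79a in TBM ran from values like those of B lineage cells to far higher ones. Ighm UMIs per Cd79a UMI were 1.76 in pro-B and pre-B cell-like cells (1.67 to 1.86), 2.03 in the Vpreb3/Ebf1 cluster (1.97 to 2.10) and 1.19 in the Cd74/H2-Eb1 cluster (1.14 to 1.23). Erythroblast-like cells had 1.48 (1.05 to 2.11) and 0.886 (0.528 to 1.48) in their 2 clusters, with intervals that overlap that of the Cd74/H2-Eb1 cluster. Neutrophil-like cells had 2.48 (2.01 to 3.09), 3.17 (2.35 to 4.32) and 4.42 (3.24 to 6.14) in their 3 clusters, the first of which overlaps the Vpreb3/Ebf1 cluster. In 36 dendritic cell-like cells led by Cox6a2 and Siglech the ratio was 36.6 (18.3 to 85.6), and Ighm stood at 1446 CPM (1285 to 1622). In 144 T and NK cell-like cells it was 26.8 (11.2 to 83.9) with 301 CPM of Ighm, and in 164 monocyte-like cells 16.5 (12.5 to 22.2) with 444 CPM. After thinning, an Ighm UMI was in 66.7% of dendritic cell-like, 37.4% of monocyte-like and 24.5% of T and NK cell-like cells, against 2.14% and 4.41% in the erythroblast-like clusters. Median depths were 5128.5, 11249.5 and 2868 UMIs in those 3 clusters and 7682 and 6033 UMIs in the erythroblast-like ones. Cd79a itself lay between 10.3 and 49.0 CPM in these other clusters, except for 109 CPM in an unnamed cluster led by Igha and Jchain, where it was 46.8 CPM without its 8 cells of at least 50 Jchain UMIs.

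**Figure D3:**
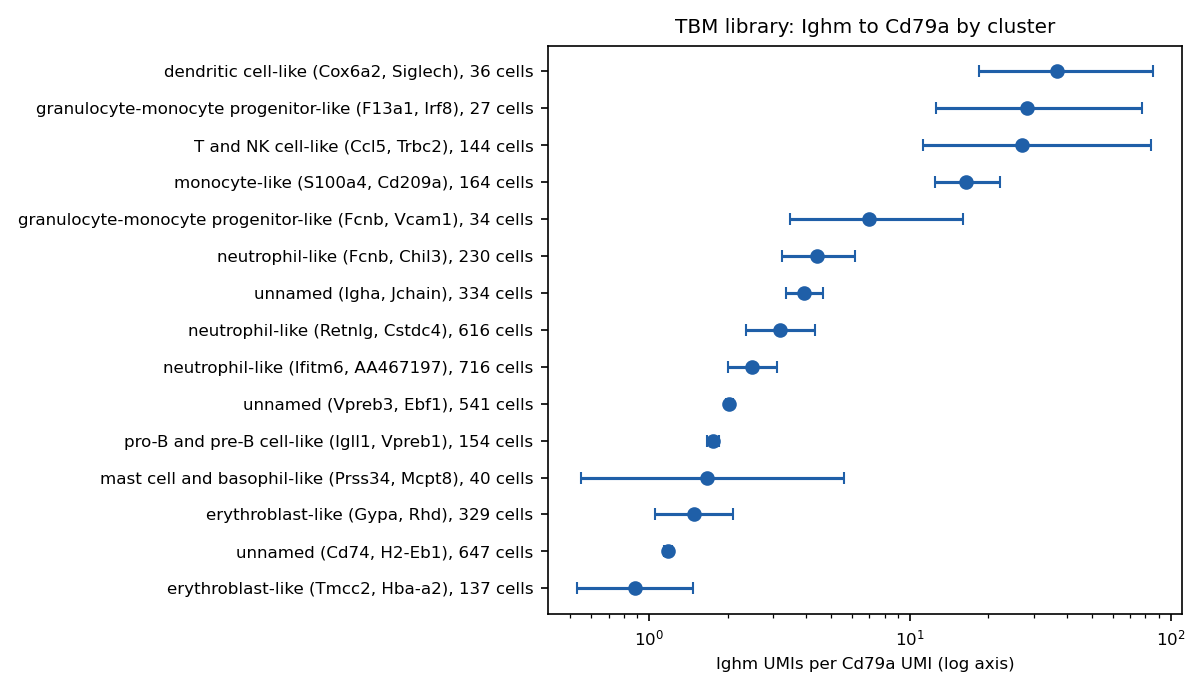
Ighm UMIs per Cd79a UMI (x axis, log scale) in 15 clusters of the TBM library (y axis, with 2 leading genes and the number of cells), with exact 95% intervals. The 3 B lineage clusters lie between 1.19 and 2.03, the erythroblast-like clusters at 0.886 and 1.48, and dendritic cell-like cells highest at 36.6.

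The selected TBM cells were put into exclusive bins by 1 or more UMIs of Vpreb1, Vpreb3, Ighd and Mki67 (a gene of dividing cells), and the bins are given in the textbook order of B cell development, which these data do not measure. Without Ighd, there were 47 Vpreb1+ Mki67+ cells, 50 Vpreb1+ Mki67- cells, 67 Vpreb3+ Mki67+ cells and 546 Vpreb3+ Mki67- cells, where the last 2 kinds lack Vpreb1. With Ighd and without Vpreb1, 351 cells were Vpreb3+ and 235 were Vpreb3-. A further 83 cells had none of Vpreb1, Vpreb3 and Ighd, and 16 had both Vpreb1 and Ighd. Median depths were 10061, 3099, 5578, 1854.5, 1961 and 1849 UMIs along the 6 bins, so a cell called negative in the shallow bins may hold an unseen transcript. Cd79a, Cd79b and Ighd chose the cells or the bins, and their levels below are descriptions. Ms4a1, Cd22, Ighm, Fcmr and Fcer2a did not enter the choice.

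Neutrophil transcripts differed between the bins. The 10 neutrophil markers made up 1.67%, 0.489%, 6.98%, 1.18%, 0.726% and 2.27% of UMIs along the 6 bins, with all 10 seen in each bin but the Vpreb1+ Mki67- one, which lacked Cxcr2. Per cell the median was between 0.399% and 0.605% in every bin, and cells with 5% or more numbered 2, 0, 4, 3, 1 and 3 along the bins, with the highest cell at 48.2% among Vpreb3+ Mki67+ cells. Erythroblast markers reached 30.1% of UMIs in 1 Vpreb3+ Mki67+ cell and 67.6% in 1 Vpreb3+ Ighd+ cell. Their part in the values of the bins was not tested. Cells with at least 50 Jchain UMIs numbered 4 among Vpreb3+ Mki67- cells and 1 among Vpreb3- Ighd+ cells.

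The members came on in steps. Ighm was the first to be high: it was in 92.8% of Vpreb1+ cells (85.7% to 97.0%, 97 cells), 98.9% of Vpreb3+ Mki67- cells and 96.4% of Ighd+ cells after thinning to 1000 UMIs. Ms4a1 was in 6.19% (2.30% to 12.98%), 43.6% (39.4% to 47.9%) and 63.4% (59.4% to 67.4%) of the same 3 groups. Fcmr was in 4.12%, 22.4% (18.9% to 26.1%) and 52.6% (48.4% to 56.7%). Ms4a1 and Fcmr RNA was thus seen in many cells without an Ighd UMI, some of which may hold an unseen Ighd transcript. Fcer2a was the least often seen of the 5 in Vpreb1+ and in Vpreb3+ Mki67- cells. It was in 0 of 97 thinned Vpreb1+ cells, where 2 cells held 3 UMIs before thinning. The share was 4.62% (3.01% to 6.75%) of Vpreb3+ Mki67- cells and 31.6% (27.8% to 35.5%) of Ighd+ cells. Cd22 was in 7.22%, 11.6% and 18.3% of the same 3 groups. Cells with none of Vpreb1, Vpreb3 and Ighd differed (81 cells after thinning). Fcer2a was in 24.7% of them (15.8% to 35.5%) and Cd22 in 7.41%. These shares depend on depth: at 2000 UMIs, where 232 Ighd+ and 209 Vpreb3+ Mki67- cells remained, Cd22 was in 34.9% of the Ighd+ and 17.2% of the Vpreb3+ Mki67- cells, and Fcmr in 65.1% and 34.0%. For comparison, thinned shares in the neutrophil-like cluster led by Ifitm6, which should lack these genes, were 0.706% for Ms4a1, 0.565% for Fcmr, 0.141% for Fcer2a and 0.282% for Cd22 (708 cells, median 4430 UMIs), and 7.06% for Ighm.

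**Figure D4:**
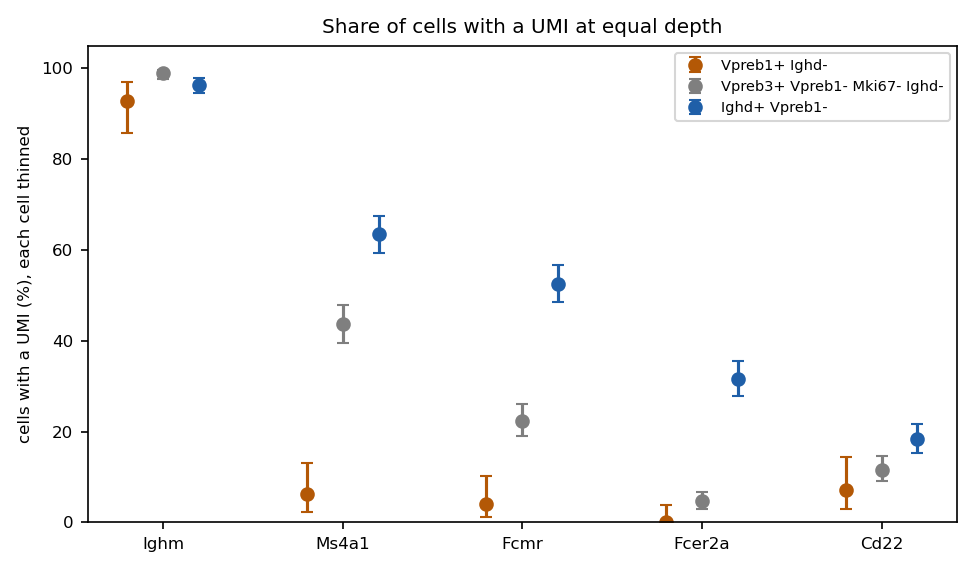
Share of cells with a UMI (y axis, percent) of 5 members after each TBM cell was thinned to 1000 UMIs, in Vpreb1+, Vpreb3+ Mki67- and Ighd+ cells, with exact 95% Clopper-Pearson intervals. Ighm is above 92% in all 3 groups, Ms4a1 reaches 43.6% and Fcmr 22.4% in Vpreb3+ Mki67- cells, and Fcer2a is at 31.6% in Ighd+ cells and 4.62% in Vpreb3+ Mki67- cells.

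Levels along the bins gave each member its own course. Ighm stood at 1996, 3692, 3139, 7798, 5058 and 3692 CPM along the 6 bins, with its top in Vpreb3+ Mki67- cells (7642 to 7956). The top was thus in a bin without Ighd UMIs, and both Ighd+ bins lay below it. Ms4a1 stood at 5.10, 250, 87.5, 1211, 1427 and 1016 CPM, and among Vpreb1+ Mki67- cells 35.2% of its 54 UMIs came from 1 cell. Fcmr stood at 6.81, 83.5, 63.9, 280, 753 and 851 CPM, and 1 cell gave 61.1% of its UMIs among Vpreb1+ Mki67- cells and 77.8% among Vpreb3+ Mki67+ cells. Fcer2a stood at 0, 13.9, 4.73, 75.4, 282 and 367 CPM, where 13.9 and 4.73 CPM rest on 3 and 2 UMIs. Cd22 stood at 28.9, 32.5, 14.2, 108, 181 and 200 CPM. The intervals of the last 2 bins overlap for Fcmr, Fcer2a and Cd22 alike. Along the bins, Fcmr, Fcer2a and Cd22 were thus highest in the 2 Ighd+ ones. For Fcer2a and Cd22 this did not hold within clusters, as given below. The signalling pair, which chose the cells, was at 1337 and 592 CPM (Cd79a and Cd79b) in Vpreb1+ Mki67+ cells and at 4013 and 3292 CPM in Vpreb3+ Mki67- cells. Both Mki67+ bins were below the Mki67- bin next to them for Cd79a, Cd79b, Ighm and Ms4a1, and their cells were deeper than those neighbours'. Fcmr, Cd22 and Fcer2a had the same direction, on few UMIs in the Mki67+ bins. The Cd22 intervals of the 2 Vpreb1+ bins overlap.

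**Figure D5:**
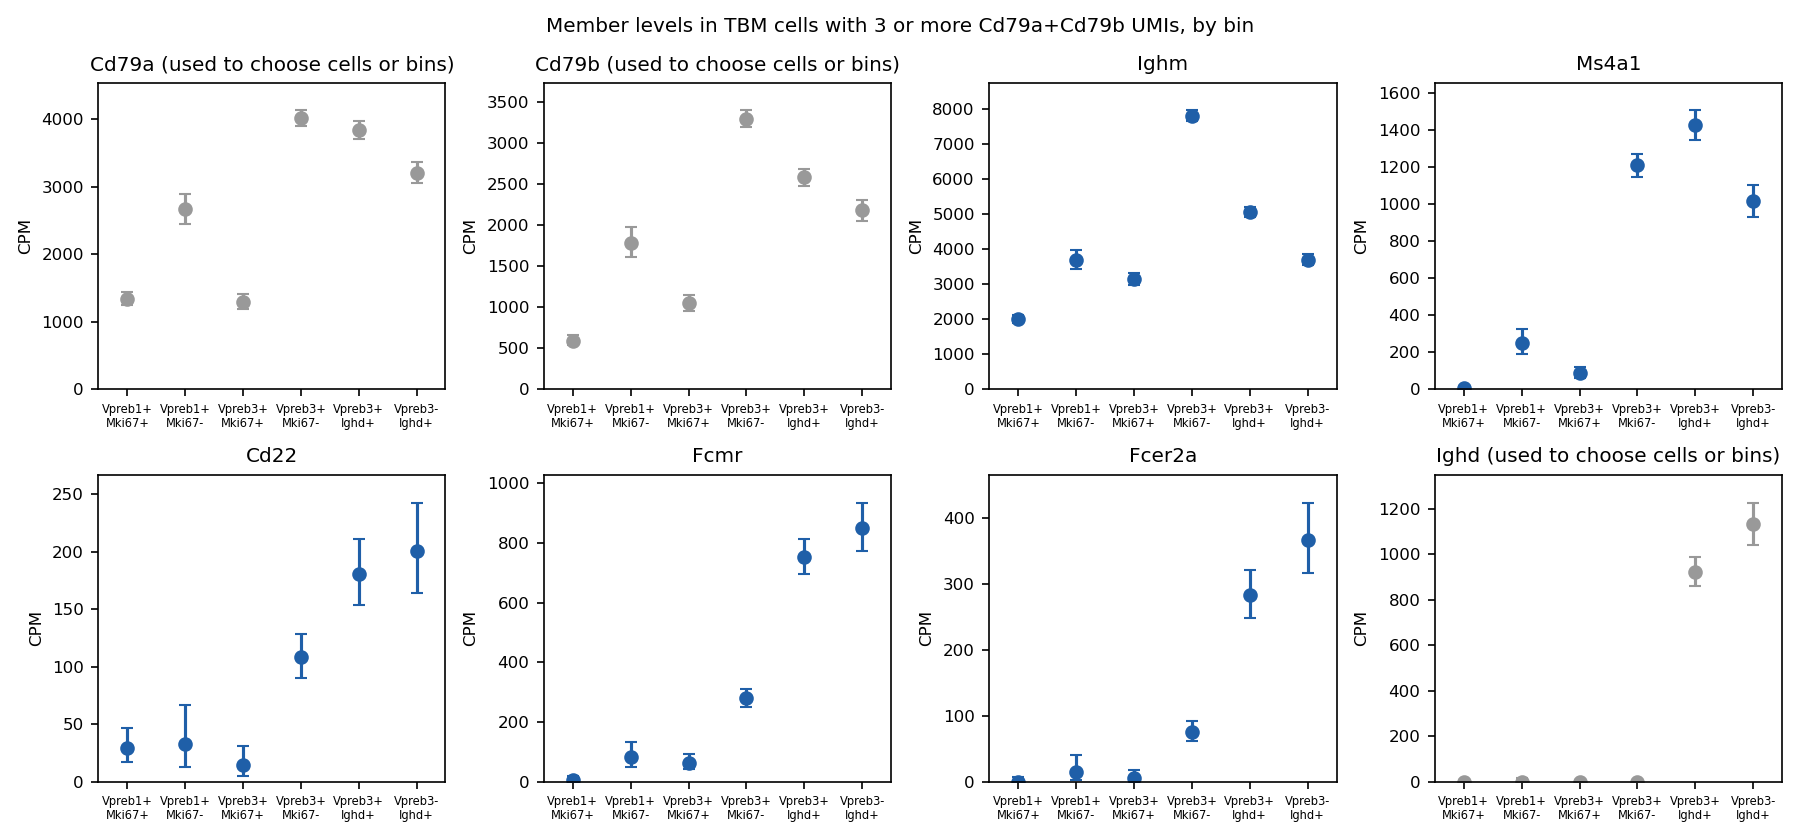
Levels of the 8 members (y axes, CPM, each with its own scale) in the 6 bins of selected TBM cells (x axis, in textbook order), with exact 95% Poisson intervals; grey points mark genes that chose the cells or bins. Ighm is highest in Vpreb3+ Mki67- cells at 7798 CPM, and Ms4a1 is above 1000 CPM from that bin on. Fcmr and Fcer2a are highest in Vpreb3- Ighd+ cells at 851 and 367 CPM, with intervals that overlap those of Vpreb3+ Ighd+ cells.

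Between Ighd+ cells (586 cells) and Vpreb3+ Mki67- cells, 2 of the 5 members not used for the bins were at least 2-fold higher and 0 were lower, where 6.08% of 7830 genes were higher and 7.05% lower. Fcer2a was at 314 CPM in Ighd+ cells and 75.4 CPM in Vpreb3+ Mki67- cells, a log2 ratio of 2.06 (1.73 to 2.40). Fcmr was at 790 CPM against 280 CPM (1.50, 1.32 to 1.68), and Cd22 at 188 CPM against 108 CPM (0.80, 0.49 to 1.11). The IgE and IgM receptor genes led this step. Ms4a1 was at 1273 CPM in Ighd+ cells and 1211 CPM in Vpreb3+ Mki67- cells, and its log2 ratio of 0.07 (-0.03 to 0.17) is within counting error. Ighm was lower in Ighd+ cells, at 4548 CPM against 7798 CPM (-0.78, -0.82 to -0.73). The median gene stood at -0.12.

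Between Vpreb3+ Mki67- and Vpreb1+ cells all 5 members were at least 2-fold higher in the Vpreb3+ Mki67- cells, as were 13.5% of 7301 genes, and 11.7% were lower. The Vpreb1+ side included 47 Mki67+ cells with 587761 UMIs, against 215584 UMIs in its 50 Mki67- cells. Dividing, deeper cells were thus part of the contrast. In Vpreb1+ Mki67- cells alone, Ms4a1 was at 250 CPM, Fcmr at 83.5, Ighm at 3692, Cd22 at 32.5 and Fcer2a at 13.9 CPM. Each lay nearer its Vpreb3+ Mki67- level than in all Vpreb1+ cells. Ms4a1 was at 1211 CPM in Vpreb3+ Mki67- cells and 71.0 CPM in Vpreb1+ cells, a log2 ratio of 4.09 (3.71 to 4.50). Fcmr gave 3.35 (2.73 to 4.05), Cd22 1.86 (1.22 to 2.55) and Ighm 1.67 (1.60 to 1.74). Fcer2a had 92 UMIs against 3 (4.34, 2.74 to 6.64). This earlier step held most of the Ms4a1 gain. Ms4a1 depended on how cells were weighted, at 2.43 when each cell counted equally and 5.95 when 2 UMIs were needed to be positive. Over the whole course, Ighd+ over Vpreb1+ cells, 4 of the 5 were at least 2-fold higher, as were 13.5% of 7546 genes (15.2% were lower), with log2 ratios of 6.39 for Fcer2a, 4.85 for Fcmr, 4.17 for Ms4a1 and 2.66 for Cd22, and 0.89 (0.82 to 0.97) for Ighm.

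Ms4a1 was spread unevenly among Vpreb3+ Mki67- cells. A UMI was in 49.3% of these cells and in 84.5% of Ighd+ cells without thinning, but the positive Ighd+ cells held a mean of 3.61 UMIs (495 cells) and the positive Vpreb3+ Mki67- cells 5.49 UMIs (269 cells). At least 5 Ms4a1 UMIs were in 18.6% of Ighd+ cells and 24.0% of Vpreb3+ Mki67- cells. Fewer cells with more UMIs each gave the equal levels. Fcer2a had a like pattern, in 46.4% of Ighd+ cells with a mean of 1.62 UMIs in positive cells, and in 7.51% of Vpreb3+ Mki67- cells with a mean of 2.24. Split by a Ms4a1 UMI, Vpreb3+ Mki67- cells with it (269) and without it (273) had the same median depth of 1854 UMIs once cells of at least 50 Jchain UMIs were left out. Cells with Ms4a1 had 522 CPM of Fcmr, against 86.6 CPM in cells without it, 205 CPM of Cd22 against 31.2 CPM, and 160 CPM of Fcer2a against 3.46 CPM (2 UMIs). The summed levels of the 3 late members were thus higher in the cells with Ms4a1. At this depth, whether single cells held them together cannot be told. Igkc, the kappa light chain constant gene, was at 16316 CPM in cells with Ms4a1 and 5915 CPM in cells without it, and Cd74, the class II invariant chain, at 14008 against 1191 CPM. Genes of recombination and early precursors ran the other way: Rag1 was at 39.5 CPM in cells with Ms4a1 and 118 CPM in cells without it, Rag2 at 16.1 against 93.5 CPM, Sox4 at 432 against 1624 CPM and Myb at 53.8 against 345 CPM. Ighm was at 8981 CPM with Ms4a1 and 7789 CPM without it. These genes were picked after the split was made, so the values are descriptions.

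Thinned cells show which members were seen together. Among 541 Vpreb3+ Mki67- cells, 220 had Ms4a1 without Fcer2a, 9 had Fcer2a without Ms4a1 and 16 had both. Among 580 Ighd+ cells the counts were 251, 66 and 117. Ms4a1 is the more often detected gene in both groups, so these counts carry no order. Ms4a1 and Fcmr gave 149 Ms4a1-only, 34 Fcmr-only and 87 double cells among the Vpreb3+ Mki67- cells, and Fcmr and Fcer2a 109, 13 and 12.

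The clusters, built without the members, divided Fcer2a more sharply than the Ighd call did. Ighd- Vpreb3+ Mki67- cells of the Cd74/H2-Eb1 cluster (77 cells) had 465 CPM of Fcer2a (364 to 586), with a UMI in 42.9% of cells, and those of the Vpreb3/Ebf1 cluster (446 cells) had 21.7 CPM (13.04 to 33.8), with a UMI in 1.57%. Ighd+ Vpreb3+ cells gave 401 CPM (352 to 455) in the Cd74/H2-Eb1 cluster (282 cells) and 18.6 CPM (3.84 to 54.5) in the Vpreb3/Ebf1 cluster (52 cells). Fcer2a went with the cluster whether or not an Ighd UMI was seen. So did Cd22, at 226 CPM (157 to 314) in Ighd- and 243 CPM (205 to 286) in Ighd+ cells of the Cd74/H2-Eb1 cluster. In the Vpreb3/Ebf1 cluster Cd22 was at 111 CPM (89.7 to 135) in Ighd- and 74.5 CPM (38.5 to 130) in Ighd+ cells. Fcmr was at 711 CPM in Ighd- cells of the Cd74/H2-Eb1 cluster and 258 CPM in those of the Vpreb3/Ebf1 cluster, and at 969 and 484 CPM in the Ighd+ cells of the same clusters. Ms4a1 differed less, with 2351 and 1252 CPM in Ighd- cells and 1635 and 1634 CPM in Ighd+ cells. Ighm ran against them, with 5878 CPM in the Cd74/H2-Eb1 cluster and 9481 CPM in the Vpreb3/Ebf1 cluster among Ighd- cells, and 4903 and 7068 CPM among Ighd+ cells. Median depths were between 1829 and 2193.5 UMIs in the 4 groups.

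Within Ighd+ cells, Fcmr went with the number of Ighd UMIs. It was at 601 CPM (540 to 668) in 222 cells of 1 Ighd UMI, 738 CPM in 145 cells of 2, 991 CPM (889 to 1103) in 162 cells of 3 or 4 and 1173 CPM (1005 to 1362) in 57 cells of 5 or more, at median depths of 1877 to 2109 UMIs. Fcer2a was at 239, 314, 446 and 298 CPM in the same classes, the last with an interval of 217 to 401. Ms4a1, at 1397, 1025, 1257 and 1391 CPM, and Ighm, at 4939, 4067, 4176 and 4972 CPM, had no such order. Ighm UMIs per Ighd UMI were 3.27 (2.98 to 3.59) in Vpreb3- Ighd+ cells and 5.49 (5.09 to 5.93) in Vpreb3+ Ighd+ cells. Every one of these cells had to hold an Ighd UMI and Vpreb3 sorted them, so the ratios only describe the bins.

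The genes around the members were read in 5 pathway lists, with 2-fold again as the line. Over all genes the shares past it were those given above, 13.5% higher and 11.7% lower in Vpreb3+ Mki67- over Vpreb1+ cells, and 6.08% higher and 7.05% lower in Ighd+ over Vpreb3+ Mki67- cells. The Vpreb1+ cells again included the Mki67+ ones. Of 23 mature B cell surface and homing genes with enough UMIs, 22 were at least 2-fold higher in Vpreb3+ Mki67- than in Vpreb1+ cells and 0 were lower, with a median log2 ratio of 2.74 where that of all genes was 0.04. Cd74 was at 7162 CPM against 431 CPM, H2-Eb1 (a class II chain) at 500 against 37.3 CPM, and Cd40 (a co-stimulatory receptor) at 72.2 against 4.98 CPM. In Ighd+ over Vpreb3+ Mki67- cells 14 of 25 were higher and 2 lower, with a median of 1.15 where that of all genes was -0.12. H2-Aa was at 4750 CPM in Ighd+ cells against 740 CPM, H2-DMb2 at 1180 against 224 CPM, and Cr2, the complement receptor CD21, at 71.3 against 9.84 CPM. Class II and complement receptor genes were thus higher in the same comparison as Fcer2a.

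Early B cell genes ran the opposite way between Vpreb3+ Mki67- and Ighd+ cells. All 11 with enough UMIs were at least 2-fold lower in Ighd+ than in Vpreb3+ Mki67- cells (median -2.54), among them Rag1 at 7.85 against 73.8 CPM, Rag2 at 8.56 against 51.7 CPM and Sox4, a transcription factor of precursors, at 160 against 967 CPM. In Vpreb3+ Mki67- over Vpreb1+ cells 8 of 17 were lower and 2 higher, with a median log2 ratio of -0.09. The 2 higher were Rag1, at 73.8 against 24.9 CPM, and Cecr2, at 157 against 69.7 CPM. Igll1 was at 13.1 CPM in Vpreb3+ Mki67- cells against 1443 CPM in Vpreb1+ cells, and Dntt had no UMI against 711 CPM. Vpreb1 and Vpreb3 stand on this list and also set the bins, so its counts are not independent of them.

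Genes of receptor signalling passed 2-fold mostly in the first step. At least 2-fold higher in Vpreb3+ Mki67- than in Vpreb1+ cells were 15 of 27, and 0 were lower (median 1.12). Siglecg, an inhibitory lectin, was at 918 against 210 CPM, Ptpn6, the phosphatase SHP-1, at 531 against 153 CPM, and Bank1, a B cell scaffold protein, at 148 against 8.71 CPM. In Ighd+ over Vpreb3+ Mki67- cells 3 of 28 were higher and 3 lower (median 0.12), shares near those over all genes, with Bank1 at 399 against 148 CPM, Rasgrp3, an activator of Ras, at 66.3 against 16.4 CPM, and Cd72, an inhibitory co-receptor, at 278 against 833 CPM; the third gene higher was Cr2, which stands on both lists. Of 16 lineage transcription factors, 6 were higher in the first step (Spib at 850 against 164 CPM) and 6 were lower in the second, among them Spib at 338 against 850 CPM, Myb at 35.7 against 188 CPM and Bach2 at 72.0 against 183 CPM. Of 7 immunoglobulin constant and joining chain genes, 7 were higher in the first step and 5 lower in the second, and both counts rest on cells of at least 50 Jchain UMIs. Without those cells 4 of 6 were higher in the first step, Igkc and the lambda genes Iglc1, Iglc2 and Iglc3, and 1 of 6, Iglc1, was lower in the second. Iglc2 was then at 3162 CPM in Vpreb3+ Mki67- cells against 101 CPM in Vpreb1+ cells. Igkc turned direction: it was at 16386 CPM in Ighd+ against 39449 CPM in Vpreb3+ Mki67- cells with all cells, and at 13486 against 11023 CPM without those cells (log2 ratio 0.29, 0.26 to 0.32). Counts of the other 4 lists differed by at most 1 gene without them.

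Likeness over all 22 clusters, as the Pearson correlation of log2(CPM + 10), gave the genes most like each member. Cd79a was most like Ebf1 (r = 0.97), Vpreb3 (0.96) and Gm30211 (0.96), and Cd79b was close to Blk and Pax5 (0.96 each), so both went with genes of the whole B lineage. Ms4a1 and Fcmr were most like each other and Bank1 (0.99 between the pair, 0.97 and 0.99 with Bank1). Ighd was most like H2-DMb2 (0.96), Cd22 (0.95) and Bank1 (0.95), Cd22 was most like Srpk3 (0.97), and Fcer2a was most like Gm31243 (0.96) and Ighd (0.95). Ighm had no close match, its highest being Ifi209 (0.91), Lbh (0.89) and Lgmn (0.89), and its r with the other 7 members ran from 0.55 with Fcer2a to 0.85 with Cd79b. The clusters share libraries and differ in depth, so the correlations are descriptions.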

How the data were processed

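The values are raw UMI counts for each gene in each barcode, deposited by the authors and made with Cell Ranger 4.0.0 on the mouse build mm10, per the submitters' processing notes; for annotation, strand setting and cell calling, nothing is given in the sources used here. A barcode was kept if it had 200 or more genes and no more than 10% mitochondrial UMIs. Scrublet, in scanpy 1.11.5, then removed 3 LSK, 3 LK and 73 TBM cells as doublets, and no correction for free RNA was made. Stated cell numbers are 1070 for LSK, 3441 for LK and 3984 for TBM, and the files held 1091, 3560 and 4317 barcodes.

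Cells were clustered together (10000 UMIs per cell, log scale, 2000 variable genes, 30 components, 15 neighbours, Leiden resolution 1), with the members, receptor, cell cycle, ribosomal, mitochondrial, sex-linked and gate genes left out of the variable genes. A cluster took the name of its highest-scoring marker list if at least 3 of its markers were in 10% of cells, at least 1 was among the 10 leading genes, no other list had more there, and no second list with several there scored at least 0.8 of it. A cluster with 3 or more antibody genes among those also stayed unnamed, a rule added after the clusters were seen. Names are rebuilt here, not the authors'.

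Levels are summed UMIs as CPM with exact Poisson intervals. Exact conditional binomial intervals were used for ratios and Clopper-Pearson ones for cell shares, all at 95%. Counts below 3 entered ratios at 3. Genes with at least 20 UMIs over both groups entered a comparison, and a gene was called at a 2-fold difference. Thinning drew 1000 UMIs per cell and left out shallower cells. With 1 library per group there is no test. Named genes were the members, the 3 genes most like each, and up to 4 genes per list with the largest ratios and at least 50 UMIs; others were named after their values were seen. The members and lists were chosen with earlier results of these data known. The ratio code was tested on simulated data. Further tools were Python 3.11.15, leidenalg 0.10.2, anndata 0.12.19, scipy 1.17.1, numpy 2.4.6, matplotlib 3.10.9, scikit-learn 1.9.0 and pandas 2.3.3. One marker gene is not reported here.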

Additional observations from a re-analysis of the deposited data

How the results depend on the processing

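Of the values recomputed under alternatives, 251 moved by less than their counting interval or 1.5 times, 52 moved by more, and 0 changed the sign of a called member value. The cell count at a Cd79a and Cd79b cut was 64 in LSK and 438 in LK at 2 or more UMIs, and 4 in LSK and 8 in LK at 5 or more. For LSK over LK, the Cd79a log2 ratio was 4.04 with each cell weighted equally and 0.92 without the cells of 3 or more Cd79a UMIs, an alternative added after seeing the data. Size factors gave -0.47 for Cd79b and -1.11 for Ighm, and leaving out those cells gave -0.92 for Ighm; the cause was not tested. Member counts past 2-fold between the B cell bins stayed within 1.5 times in every alternative run. Among single ratios of Ighd+ over Vpreb3+ Mki67- cells, Ms4a1 ranged from -0.02 to 0.20, Cd22 from 0.71 to 1.05, Ighm from -0.88 to -0.65, Fcmr from 1.41 to 1.85 and Fcer2a from 1.98 to 2.68. Leaving out cells of at least 50 Jchain UMIs was also added after seeing the data. Without them Igkc changed sign between Ighd+ and Vpreb3+ Mki67- cells, at -1.27 with all cells and 0.29 without. Thinned to 2000 UMIs, Fcer2a was in 36.2% of Ighd+ and 8.13% of Vpreb3+ Mki67- cells. The shallow TBM cells limit every call of a missing transcript. No paired analysis was possible because each group has 1 library.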
